A study of Mus musculus with 10 samples.

Results

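Inhibitory immune checkpoints were described through 10 transcripts chosen by name from the 23086 gene symbols of the deposited table, and all 10 were present. They comprise the ligand genes Cd274 (PD-L1), Pdcd1lg2 (PD-L2), Cd276 (B7-H3) and Lgals9 (galectin-9), the receptor genes Pdcd1 (PD-1), Lag3, Ctla4, Tigit and Havcr2 (TIM-3), and Vsir (VISTA), which acts as a ligand and as a receptor. The samples were 5 ATM-KO and 5 ATM-WT urothelial tumours of BBN963, a mouse bladder carcinoma cell line, all taken at a stated size of 500 mm3. ATM is the kinase that signals DNA double-strand breaks. The labels name no treatment, and the mouse strain, the animals' age, the tumour site, the lesion made in Atm and the number of knockout clones are also left unstated. The labels do not say that each tumour came from its own mouse, so the p-values measure the spread between these samples, which may in part be technical.

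Checkpoint receptors sit mainly on activated T cells and natural killer (NK) cells and dampen their responses when a ligand binds. PD-L1 and PD-L2 engage PD-1, CTLA-4 competes with CD28 for CD80 and CD86, LAG-3 binds MHC class II, TIGIT binds nectin-family proteins such as PVR, and TIM-3 has galectin-9 among its reported ligands. Tumour cells, macrophages and dendritic cells all make PD-L1, whose transcription rises in response to interferon gamma, and PD-L1 on bladder cancers is a target of approved antibodies.

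The values were normalized counts made by the authors, with totals from 20.2 to 22.3 M (mega) per library. The commonest spacing of low values gave a rough depth of 20.6 to 28.3 M reads per library, except 8.82 M for ATM-WT library A2. Zeros were most frequent in the ATM-WT libraries A2 (4824 genes) and A4 (4266 genes), with 2225 to 3602 in the other 8. Atm itself did not check the labels, with 455 ± 139 normalized counts in ATM-KO and 485 ± 183 in ATM-WT (SD, n = 5 each, limma adjusted p = 0.85). The 10 epithelial markers summed to 2362 to 4062 in ATM-KO libraries and 90356 to 246267 in ATM-WT libraries. All 10 were lower in ATM-KO (limma, adjusted p under 0.05), though none was at 0 in all libraries of a group. Krt18 (1710 ± 402 in ATM-KO, 4524 ± 1693 in ATM-WT) and Krt14 (566 ± 301 in ATM-KO, 62713 ± 40492 in ATM-WT) kept the highest ATM-KO means. These 2 genes are named after their values were seen. Fewer cells of a type and less RNA per cell cannot be told apart in these bulk samples.

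Cd274 and Pdcd1lg2 lie next to each other on mouse chromosome 19, and their start regions are shown because both transcripts moved in the same direction. Lgals9, on chromosome 11, is shown as the one ligand gene of the set whose start region held an interferon-response motif. Each sequence runs 5′ to 3′ on the gene's own strand, from 250 bases before to 50 bases after the RefSeq start, in build GRCm38.p6. The windows are chr19:29367188-29367487 (plus strand), chr19:29410669-29410968 (plus strand) and chr11:78984875-78985174 (minus strand). Capitals mark a match to the interferon-stimulated response element (ISRE), written here as GAAA, any 2 bases and GAAA.
Cd274: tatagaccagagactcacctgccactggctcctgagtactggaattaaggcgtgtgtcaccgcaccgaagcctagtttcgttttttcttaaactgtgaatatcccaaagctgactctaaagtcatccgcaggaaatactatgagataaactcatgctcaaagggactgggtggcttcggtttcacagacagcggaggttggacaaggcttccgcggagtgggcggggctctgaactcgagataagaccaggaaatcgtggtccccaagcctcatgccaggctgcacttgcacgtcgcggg
Pdcd1lg2: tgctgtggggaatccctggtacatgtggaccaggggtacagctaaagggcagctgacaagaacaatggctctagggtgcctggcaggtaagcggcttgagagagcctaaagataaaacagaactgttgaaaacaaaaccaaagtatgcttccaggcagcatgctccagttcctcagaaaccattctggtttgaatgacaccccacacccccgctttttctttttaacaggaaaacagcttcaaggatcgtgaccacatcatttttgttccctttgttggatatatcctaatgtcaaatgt
Lgals9: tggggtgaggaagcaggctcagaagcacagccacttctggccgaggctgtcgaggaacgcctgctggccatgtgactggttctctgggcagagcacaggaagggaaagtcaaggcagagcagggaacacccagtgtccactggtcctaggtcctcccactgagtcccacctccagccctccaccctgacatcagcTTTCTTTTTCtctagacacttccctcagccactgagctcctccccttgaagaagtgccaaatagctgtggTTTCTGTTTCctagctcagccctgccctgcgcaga
The search covered both strands for the ISRE, the interferon gamma-activated site or GAS (TTCNNNGAA), a kappaB motif (GGG, any 2 bases and TTTCC) and an AP-1 motif (TGANTCA). Of the 10 genes, 9 had a start region in the RefSeq table. Among these the ISRE matched only in Lgals9, at positions -55 and 16 from the start, and an AP-1 match lay in Havcr2 at -200. The ISRE letters occur in 3.44%, GAS in 8.30%, kappaB in 1.63% and AP-1 in 7.81% of 32851 mouse start regions of the same length. The Cd274 region held 15 CpG dinucleotides and the Pdcd1lg2 region 3.

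Of the 10 checkpoint genes, 5 were higher in ATM-KO tumours and 0 lower, where 22.1% of all 16517 tested genes were called higher and 24.3% lower. The 5 were the ligand genes Pdcd1lg2, Cd274 and Cd276 and the receptor genes Lag3 and Pdcd1. No member was lower at an unadjusted p under 0.05 either. The exact permutation test called 4 members higher and 0 lower, where it called 3281 of 16517 tested genes higher and 3496 lower. The median log2 fold change of the 10 genes was 0.69, against 0.00467 over all tested genes. The lowest ATM-KO library exceeded the highest ATM-WT library for 4 members (Pdcd1lg2, Cd274, Cd276 and Lag3), where 17.0% of all tested genes showed that pattern. Tests were made with limma on log2(value + 1) across all genes with a mean of at least 10. Benjamini-Hochberg adjustment covered all of them, and fold changes below are ATM-KO minus ATM-WT on that scale, ± SE. The change of low genes depends on the added value and shrinks as that value grows. For Pdcd1 it was 3.42 with 0.1 added, 2.70 with 1 and 1.73 with 10.

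**Figure D1:**
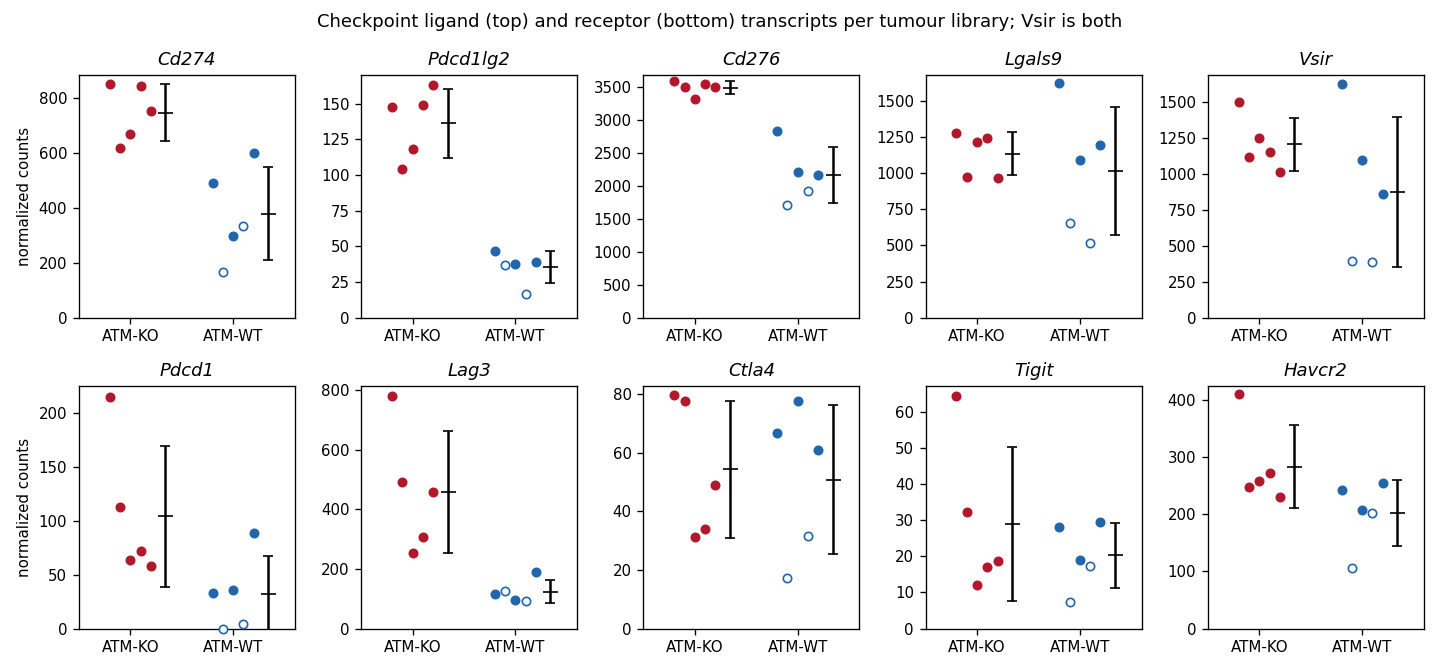
Normalized counts of the 10 checkpoint genes in each tumour library (points; open points are ATM-WT libraries A2 and A4), with the mean and SD of each group beside them. Every ATM-KO point lies above every ATM-WT point for Cd274, Pdcd1lg2, Cd276 and Lag3, and the groups overlap in the other 6 panels.

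Pdcd1lg2, the gene of the second PD-1 ligand, showed the clearest separation among the ligands. Its normalized counts were 147, 104, 118, 149 and 163 in ATM-KO libraries A11 to A15, and 46.5, 36.9, 37.8, 16.6 and 39.3 in ATM-WT libraries A1 to A5. The lowest ATM-KO library was thus more than 2-fold above the highest ATM-WT library. The means were 136 ± 24.2 in ATM-KO and 35.4 ± 11.2 in ATM-WT (SD, n = 5 each), a ratio of 3.85 and a log2 fold change of 1.97 ± 0.31 (limma adjusted p = 2.17e-04).

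Cd274, which encodes PD-L1, held 851, 617, 671, 846 and 753 normalized counts in ATM-KO libraries A11 to A15, and 492, 167, 299, 334 and 601 in ATM-WT libraries A1 to A5. The groups came close without overlapping, with ATM-KO library A12 at 617 and ATM-WT library A5 at 601. The means were 748 ± 104 in ATM-KO and 379 ± 170 in ATM-WT, a log2 fold change of 1.10 ± 0.28 (limma adjusted p = 0.0066). The protein-coding genes on either side of the Cd274 and Pdcd1lg2 pair did not rise: Plgrkt was lower (884 ± 61.9 in ATM-KO, 1129 ± 163 in ATM-WT, limma adjusted p = 0.026), and Ric1 was not called (1251 ± 118 in ATM-KO, 1360.0 ± 217 in ATM-WT, limma adjusted p = 0.48). These neighbours were chosen after values were seen.

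Cd276 encodes B7-H3, a B7-family protein found on many tumour and stromal cells whose receptor is not settled. It held 3588, 3499, 3323, 3548 and 3500.0 normalized counts in ATM-KO libraries A11 to A15, and 2835, 1709.8, 2211, 1928 and 2169.7 in ATM-WT libraries A1 to A5. The 5 ATM-KO tumours were nearly alike, with an SD of 2.91% of the mean, against 19.5% in ATM-WT. The log2 fold change was 0.71 ± 0.12 (limma adjusted p = 4.01e-04), smaller than that of the PD-1 ligands but with the smallest SE of the 10 genes. In the annotation used here (GENCODE M21), exons of Cd274 and Cd276 overlap an opposite-strand gene, and no source states whether counting used strand, so reads of those partners cannot be told apart from theirs.

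Lgals9, the galectin-9 gene, was not called. ATM-KO libraries had 1276, 973, 1215, 1244 and 969 normalized counts (A11 to A15), and ATM-WT libraries had 1625, 656, 1089.8, 516 and 1192 (A1 to A5). ATM-WT libraries were both the highest and the lowest of the 10, so the groups overlapped. The log2 fold change was 0.27 ± 0.26, with a 95% interval from -0.30 to 0.84 (limma adjusted p = 0.43).

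Vsir, the VISTA gene of myeloid and T cells, had the same shape. The ATM-KO libraries held 1499, 1113, 1247.5, 1149 and 1009.9 normalized counts, and the ATM-WT libraries 1623, 391, 1096, 389 and 858. ATM-WT libraries A2 and A4 lay far below the other 8, and ATM-WT library A1 was the highest of all. The log2 fold change was 0.67 ± 0.35, with a 95% interval from -0.08 to 1.43 (limma adjusted p = 0.13), and it was called without ATM-WT library A1 (0.95, adjusted p = 0.018).

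Among the receptors, Lag3 separated the genotypes most clearly. LAG-3 is an inhibitory CD4-like receptor of activated T cells, NK cells and plasmacytoid dendritic cells. Across A11 to A15 the ATM-KO tumours had 781, 492, 255, 308 and 458 normalized counts, and across A1 to A5 the ATM-WT tumours had 115, 125, 96.5, 92.0 and 191. All 5 ATM-KO libraries exceeded the highest ATM-WT library, although they spread 3-fold among themselves. The means were 459 ± 206 in ATM-KO and 124 ± 39.8 in ATM-WT, a ratio of 3.70 and a log2 fold change of 1.82 ± 0.30 (limma adjusted p = 3.30e-04). Cd4, the gene next to Lag3 on chromosome 6 and a T cell marker, averaged 171 ± 37.8 in ATM-KO and 102 ± 43.6 in ATM-WT (0.83 ± 0.32, limma adjusted p = 0.047, and 0.36 with adjusted p = 0.23 without A2 and A4).

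Pdcd1, which encodes PD-1, had the largest fitted change and the widest error. Its levels were 215, 113, 63.3, 72.4 and 57.8 normalized counts in ATM-KO (A11 to A15), and 33.4, 0, 35.8, 4.14 and 88.5 in ATM-WT (A1 to A5). The groups overlapped, since ATM-WT library A5 exceeded 3 ATM-KO libraries. The means were 104 ± 65.5 in ATM-KO and 32.4 ± 35.4 in ATM-WT, and the log2 fold change was 2.70 ± 1.02 (limma adjusted p = 0.045). That change rests on the low or absent values in A2 and A4: without both, it was 0.94 ± 0.47 (adjusted p = 0.13), and the ratio of means was 1.98 in place of 3.22. The call was also lost without any single ATM-KO library or without ATM-WT library A2 or A4, with a lowest estimate of 1.74 without A2.

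Ctla4, the receptor gene of regulatory and activated T cells, did not differ detectably. The 5 ATM-KO tumours had 79.7, 77.6, 31.2, 33.9 and 48.9 normalized counts in the order of A11 to A15, and the 5 ATM-WT tumours, from A1 to A5, 66.7, 17.2, 77.6, 31.5 and 61.0. The groups overlapped, with high and low libraries in both, and ATM-WT library A2 was the lowest of the 10. The log2 fold change was 0.17 ± 0.46, with a 95% interval from -0.82 to 1.17 (limma adjusted p = 0.78).

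Tigit, the nectin-binding receptor gene of T and NK cells, rested on the fewest normalized counts of the set and had the largest SE among the members that were not called. The ATM-KO libraries held 64.4, 32.4, 12.2, 17.0 and 18.8 normalized counts, and the ATM-WT libraries 28.1, 7.40, 18.9, 17.3 and 29.4. Only ATM-KO libraries A11 and A12 lay above the ATM-WT range. The log2 fold change was 0.38 ± 0.53, with a 95% interval from -0.77 to 1.53 (limma adjusted p = 0.58).

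Havcr2, the TIM-3 gene of exhausted T cells and of myeloid cells, held 409.7, 247, 257, 272 and 230.3 normalized counts in ATM-KO libraries A11 to A15, and 242, 107, 207, 202 and 254 in ATM-WT libraries A1 to A5. ATM-KO library A11 stood above the other 9, and ATM-WT library A2 below them. The log2 fold change was 0.51 ± 0.25, with a 95% interval from -0.03 to 1.06 (limma adjusted p = 0.11). With quantile-normalized values, whose all-gene median lay at 0.15, it was 0.81, or 0.66 above that median (adjusted p = 0.019, where 27.3% of tested genes were called higher). All 10 members lay above that shifted median, and all 10 were positive under upper-quartile scaling, where the all-gene median was -0.028.

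**Figure D2:**
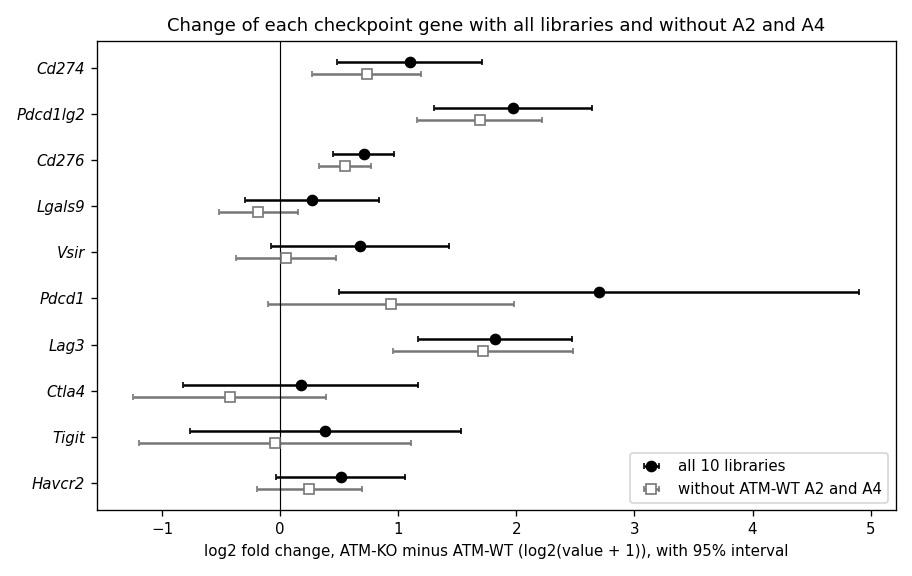
Fitted differences, ATM-KO minus ATM-WT in log2(value + 1), with 95% intervals from limma, with all 10 libraries (filled circles) and without ATM-WT libraries A2 and A4 (open squares). Intervals of Cd274, Pdcd1lg2, Cd276 and Lag3 lie above 0 in both, that of Pdcd1 only with all libraries, and those of the other 5 genes cross 0 in both.

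ATM-WT libraries A2 and A4 were low for almost the whole set. The lowest ATM-WT library was A2 or A4 for 10 of 10 members, against 45.7% of all tested genes, and these libraries were together the lowest pair for 8 of 10 members, against 19.6% of all tested genes. The comparison was repeated without both, which left 5 ATM-KO and 3 ATM-WT libraries. Then 4 of 10 members were higher and 0 lower, where 23.5% of 16369 tested genes were called higher and 24.5% lower. Those 4 were Pdcd1lg2 (1.69 ± 0.24, limma adjusted p = 2.00e-04), Lag3 (1.72 ± 0.35, adjusted p = 0.0019), Cd276 (0.55 ± 0.10, adjusted p = 0.0010) and Cd274 (0.73 ± 0.21, adjusted p = 0.013). Of the other members, Vsir moved to 0.05 ± 0.19 and Havcr2 to 0.25 ± 0.20, while Lgals9 (-0.19 ± 0.15), Ctla4 (-0.43 ± 0.37) and Tigit (-0.05 ± 0.52) turned negative, with limma adjusted p between 0.34 and 0.95 for these 5. The median of the 10 members was 0.40, against -0.01 over all tested genes.

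Within ATM-KO, library A11 was the highest for 9 of 10 members, against 23.6% of all tested genes, and Pdcd1lg2 was the exception. Without A11, the ATM-KO means were 378 for Lag3, 722 for Cd274 and 76.5 for Pdcd1. Lag3, Cd274, Pdcd1lg2 and Cd276 were called higher with any one library left out. The SD relative to the mean was larger in ATM-WT for 8 of 10 members, as it was for 78.4% of all tested genes.

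Since several of these receptors are made by T cells, their levels were set beside the mean log2 level of Cd3d, Cd3e and Cd3g, subunits of the T cell receptor complex, in the same library. That CD3 level was 7.57, 7.50, 5.97, 6.50 and 5.98 in ATM-KO libraries A11 to A15, and 6.10, 4.29, 6.52, 6.03 and 7.04 in ATM-WT libraries A1 to A5. A11 and A12 were the highest of all and A2 the lowest, and the groups overlapped (difference 0.70, exact two-sided permutation p = 0.31). ATM-KO libraries A11 and A12 also held the highest Pdcd1, Ctla4, Lag3 and Tigit levels of their group, but Havcr2 in A12 (247) lay below A13 (257) and A14 (272). ATM-WT library A2 held the lowest Pdcd1, Ctla4, Tigit and Havcr2 levels of its group, but its Lag3 level (125) was exceeded there only by A5 (191).

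**Figure D3:**
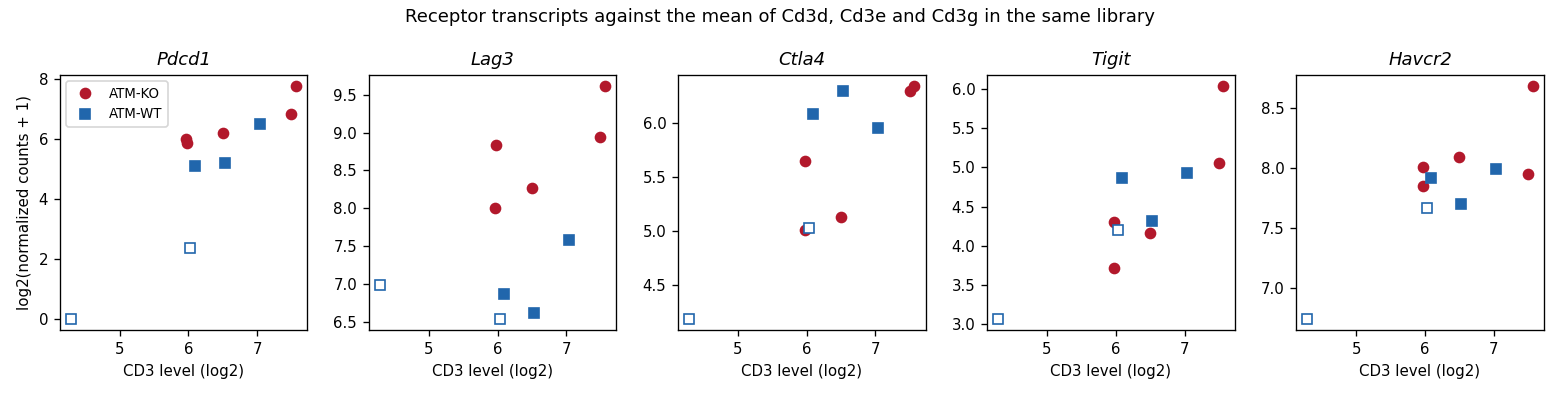
Log2 level of each receptor transcript (vertical axis) against the mean log2 level of Cd3d, Cd3e and Cd3g (horizontal axis), one point per library, circles for ATM-KO and squares for ATM-WT, open for A2 and A4. Lag3 in ATM-KO lies above ATM-WT at similar CD3 levels, while the groups are intermixed for Ctla4, Tigit and Havcr2. ATM-WT library A2, with the lowest CD3 level (4.29), has no ATM-KO library near it. The Lag3 difference relative to CD3 was not called (limma adjusted p = 0.28), and relative to CD3 only A15 (2.87) exceeds A2 (2.69).

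Relative to CD3, 0 of 10 members were called in a limma fit over all genes, where 1.11% of tested genes were called higher and 14.1% lower. At an unadjusted p under 0.05, 1 member passed in limma and 1 in the exact permutation test, in both cases Pdcd1. Pdcd1 differed by 2.00 ± 0.78 (exact two-sided permutation p = 0.016, limma adjusted p = 0.064), and by 0.79 without A2 and A4 (adjusted p = 0.67). Lag3 differed by 1.12 ± 0.65, with a 95% interval from -0.17 to 2.40 (exact two-sided permutation p = 0.056, limma adjusted p = 0.28), and by 1.57 without A2 and A4 (limma adjusted p = 0.070). Ctla4 (-0.53 ± 0.75), Tigit (-0.32 ± 0.85) and Havcr2 (-0.19 ± 0.65) lay below 0 and were not called. Their exact two-sided permutation p, unadjusted, was 0.079, 0.29 and 0.63. The Ctla4 SE, moderated over all genes, exceeded the SD of its own relative levels (0.41 in ATM-KO and 0.52 in ATM-WT). Single libraries changed these calls: without A2 alone, Lag3 (1.56, adjusted p = 0.029) and Pdcd1lg2 (1.72, adjusted p = 0.036) were called higher, and without A5 alone Pdcd1 was (2.40, adjusted p = 0.024).

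The same was done with Ptprc, which encodes the leukocyte surface protein CD45. Ptprc itself held 2178, 1882, 1609, 1587 and 1557 normalized counts in ATM-KO libraries A11 to A15, and 1642, 688, 1542, 871 and 1548 in ATM-WT libraries A1 to A5, again lowest in A2 and A4 (0.56 ± 0.23, limma adjusted p = 0.065). Relative to Ptprc, 3 of 10 members were higher and 0 lower, where 3.75% of tested genes were called higher and 30.9% lower. They were Pdcd1lg2 (1.41 ± 0.39, limma adjusted p = 0.0090), Lag3 (1.26 ± 0.35, adjusted p = 0.0089) and Pdcd1 (2.14 ± 0.74, adjusted p = 0.030). Without A2 and A4, Pdcd1lg2 (1.54, adjusted p = 9.40e-04) and Lag3 (1.57, adjusted p = 5.90e-04) were called and Pdcd1 was not (0.79, adjusted p = 0.15), where 13.2% of tested genes were called higher and 25.3% lower. Cd274 (0.54 ± 0.28, adjusted p = 0.15) and Cd276 (0.15 ± 0.26, adjusted p = 0.68), which tumour and stromal cells also make, were not called on this scale. Without A2 and A4, Cd274 was 0.58 (limma adjusted p = 0.055) and Cd276 0.40 (limma adjusted p = 0.057), both just past the threshold and not called. Vsir (0.12), Havcr2 (-0.05), Tigit (-0.18), Lgals9 (-0.29) and Ctla4 (-0.38) were not called. The subtracted level is shared by all genes of a library, so these fits rest on the same 10 libraries for every gene. Their SEs are moderated over all genes, so the p-values may be too small for some genes and too large for others. By the exact permutation test on these relative levels, p was 0.0079 for Pdcd1lg2, 0.016 for Lag3, 0.032 for Pdcd1 and 0.040 for Cd274 (unadjusted, two-sided).

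**Figure D4:**
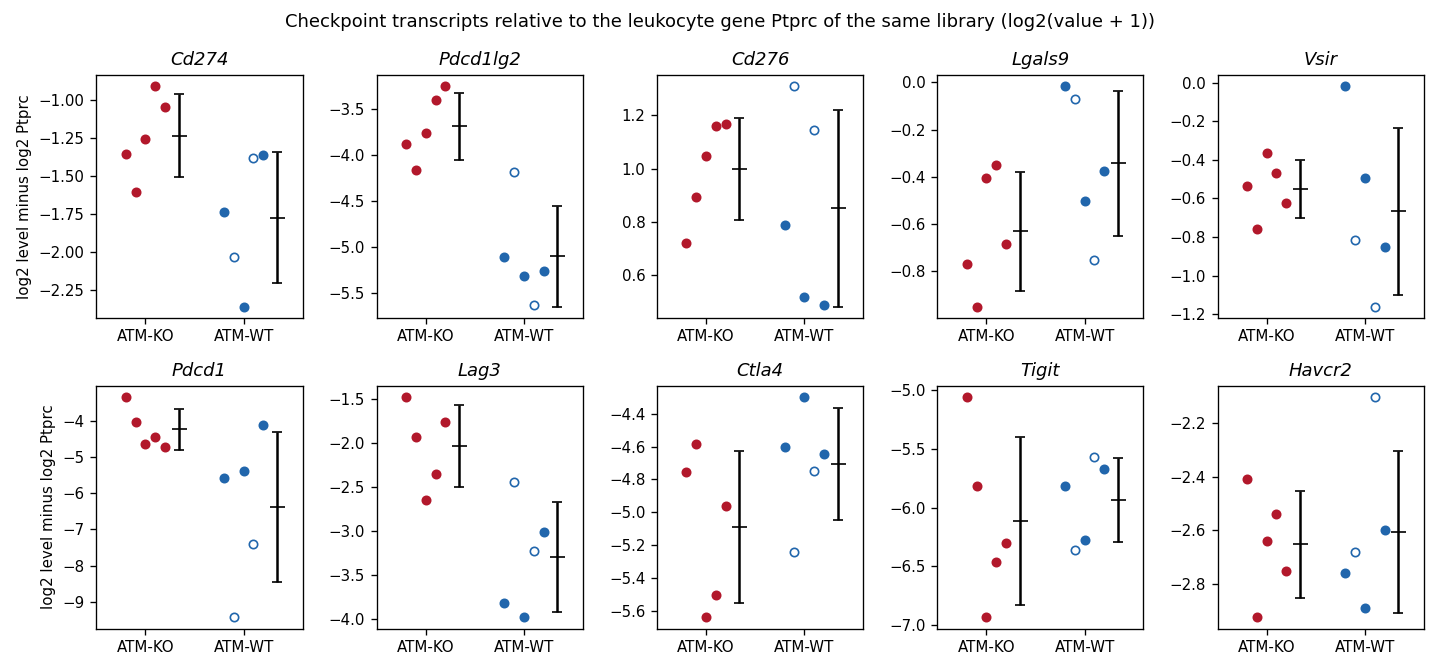
Log2 level of each checkpoint gene minus the log2 level of Ptprc in the same library (points; open for ATM-WT libraries A2 and A4), with the mean and SD of each group. Pdcd1lg2 is separated between the groups by this measure, but ATM-KO library A12 (-4.16) and ATM-WT library A2 (-4.19) nearly touch. Lag3 overlaps only through A2, and Cd276, Vsir, Havcr2, Tigit and Ctla4 are intermixed.

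Markers of other cell types moved beside these genes, and their part in the checkpoint results was not tested. Of 16 T cell markers 1 was higher (Cd4) and 1 lower (Bcl11b), with summed levels of 2364 to 3939 in ATM-KO and 1684 to 3538 in ATM-WT. Thy1, named after its values were seen, was on average the largest part of these sums (1066 ± 285 in ATM-KO and 1141 ± 406 in ATM-WT, not called). Bcl11b averaged 38.6 in ATM-KO and 258 in ATM-WT, but 176 in ATM-WT without A2 and A4 (-2.19, still called lower). A2 and A4 had the lowest CD3 levels of ATM-WT (4.29 and 6.03) and its highest epithelial sums (246267 and 195362). Whether Bcl11b follows T cells here was not tested. Of 4 tested regulatory T cell markers 0 were called by limma, 0 at an unadjusted p under 0.05 and 0 by the exact permutation test, with sums of 165 to 298 in ATM-KO and 187 to 328 in ATM-WT. Without A2 and A4, 1 of them, Ikzf4, was called lower (-1.72, limma adjusted p = 0.0042, against -0.72 and 0.47 with all libraries). Of 6 tested NK cell markers 1 was higher (Gzma), with sums of 617 to 1656 in ATM-KO and 130 to 590.2 in ATM-WT. Gzma was on average the largest part of these sums (713 ± 354 in ATM-KO and 139 ± 91.7 in ATM-WT). Klrb1c, Klre1, Klrk1, Prf1 and Eomes were not called, and Ncr1, not tested, averaged 7.20 in ATM-KO and 7.73 in ATM-WT. Of 9 dendritic cell markers 5 were higher (Flt3, Itgax, Xcr1, Clec9a and Batf3, named after their values were seen) and 0 lower, with sums of 3397 to 4144 in ATM-KO and 959 to 1485 in ATM-WT, which do not overlap. Itgax was on average the largest part of these sums (2657 ± 367 in ATM-KO and 857 ± 154 in ATM-WT). Zbtb46, Ccr7, Cd209a and Siglech were not called. Cd209a averaged 7.47 in ATM-KO and 15.2 in ATM-WT, and Siglech 5.97 in ATM-KO and 17.6 in ATM-WT. Of 4 tested B cell markers 2 were higher (Blk and Cd79a), with sums of 550.5 to 699 in ATM-KO and 102 to 286 in ATM-WT, although Ms4a1, which defines B cells, averaged under 4 normalized counts in both groups. Blk (238 ± 72.7) and Cd79a (234 ± 23.0) were on average the largest parts of the ATM-KO sums. The other tested markers, named after their values were seen, were not called. Cd79b averaged 17.7 ± 15.3 in ATM-KO and 34.7 ± 23.9 in ATM-WT, and Cd22 125 ± 29.1 in ATM-KO and 108 ± 43.6 in ATM-WT. Of 13 macrophage and monocyte markers 1 was higher (Cd68) and 2 were lower (among them Itgam), with sums of 26701 to 34648 in ATM-KO and 13106 to 37807 in ATM-WT, where A2 and A4 were the lowest. The exact permutation test called 0 of these 13, and without A2 and A4 limma called 0 higher and 2 lower, with Cd68 at 0.26 (adjusted p = 0.26). Of 4 tested neutrophil markers 4 were lower, of 9 fibroblast markers 8 were lower, and of 7 endothelial markers 1 was lower (Kdr), with 0 higher in each. The neutrophil sums were 554 to 1678 in ATM-KO and 1974 to 3615 in ATM-WT, the fibroblast sums 37388 to 109098 in ATM-KO and 160149 to 579050 in ATM-WT, and the endothelial sums 1820.4 to 3733 in ATM-KO and 2304 to 4417 in ATM-WT. No marker of these lists was at 0 in all libraries of a group.

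Further inhibitory receptors and ligands, beyond the 10, went both ways. Of 27 listed, 23 were tested, of which 7 were higher and 3 lower (6 and 3 without A2 and A4), with a median of 0.57 (0.17 without A2 and A4). Pvr, the TIGIT ligand gene, averaged 1127 ± 62.4 normalized counts in ATM-KO and 588 ± 158 in ATM-WT (0.99 ± 0.18, limma adjusted p = 7.54e-04). Nectin3, encoding another nectin, averaged 687 ± 64.6 in ATM-KO and 163 ± 105 in ATM-WT (2.32 ± 0.37, adjusted p = 2.43e-04), and Hmgb1, a chromatin protein reported to bind TIM-3, 17981 ± 1556 in ATM-KO and 12013 ± 830 in ATM-WT (0.58 ± 0.10, adjusted p = 3.73e-04). Ceacam1, an epithelial and immune adhesion gene also reported as a TIM-3 partner, ranged from 25.8 to 38.5 in ATM-KO and from 290 to 1923 in ATM-WT (-4.73 ± 0.40, adjusted p = 2.04e-06). Nectin2, a further TIGIT ligand gene (-0.90 ± 0.21, adjusted p = 0.0042), and Vtcn1, which encodes the B7-family protein B7-H4 (-1.39 ± 0.36, adjusted p = 0.0064), also fell and are named after their values were seen.

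The costimulatory side of the CD28 family showed no call. Of Cd80, Cd86, Cd28, Icos and Icosl, limma called 0 higher and 0 lower, 0 passed an unadjusted p under 0.05 and 0 passed the exact permutation test. Their median log2 fold change was 0.15. Cd80 averaged 200.3 ± 20.7 normalized counts in ATM-KO and 183 ± 50.7 in ATM-WT, and Cd86 369 ± 80.7 in ATM-KO and 348 ± 128 in ATM-WT. Both encode ligands shared by CD28 and CTLA-4.

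Of 19 regulators of interferon gamma signalling and of PD-L1, 1 was higher and 7 were lower (1 and 7 without A2 and A4), with a median of 0.11. Ifng itself averaged 16.7 ± 12.3 normalized counts in ATM-KO and 16.8 ± 9.74 in ATM-WT (0.08 ± 0.67, limma adjusted p = 0.93). Its receptor gene Ifngr1 averaged 1145 ± 134 in ATM-KO and 1692 ± 283 in ATM-WT (-0.55 ± 0.13, adjusted p = 0.0035). Irf1 (0.28 ± 0.18, limma adjusted p = 0.22), which carries the interferon signal to the Cd274 gene, was not called. Hif1a (-1.27 ± 0.13, adjusted p = 6.62e-06) and Myc (-1.17 ± 0.27, adjusted p = 0.0033), transcription factor genes reported to raise PD-L1, fell, as did Cmtm4 (-0.44 ± 0.09, adjusted p = 0.0012), whose product protects PD-L1 protein from breakdown. Spop (-0.27, adjusted p = 0.011) and Gsk3b (-0.30, adjusted p = 0.042), whose products promote the breakdown of PD-L1 protein, also fell. The 1 higher regulator was the kinase gene Jak1 (0.45 ± 0.14, adjusted p = 0.015, and 0.26 with adjusted p = 0.056 without A2 and A4). Without A2 and A4, Myc was -0.71 and still called, Gsk3b was not called (-0.22, adjusted p = 0.14), Jak2 was called lower (-0.39) and Cul3 higher (0.52). Ifng, Irf1, Jak1, Jak2, Spop, Gsk3b and Cul3 are named after their values were seen. With all libraries, 11 of the 19 were not called.

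Of 26 genes of receptor signalling and T cell exhaustion, 25 were tested, and 4 were higher and 3 lower (4 and 4 without A2 and A4), with a median of 0.21. Irf4, a transcription factor of activated lymphocytes and dendritic cells, averaged 69.4 ± 9.80 normalized counts in ATM-KO and 23.9 ± 11.9 in ATM-WT (1.61 ± 0.35, limma adjusted p = 0.0024). Entpd1, which encodes the ectonucleotidase CD39 of exhausted T cells, regulatory T cells and macrophages, averaged 1114 ± 196 in ATM-KO and 563 ± 212 in ATM-WT (1.07 ± 0.26, adjusted p = 0.0047). The nuclear receptor gene Nr4a2 averaged 122 ± 17.1 in ATM-KO and 312 ± 54.1 in ATM-WT (-1.35 ± 0.18, adjusted p = 7.24e-05), and the transcription factor gene Maf 2196 ± 124 in ATM-KO and 3404 ± 849 in ATM-WT (-0.59 ± 0.15, adjusted p = 0.0071). Of the other calls, chosen after values were seen, Fyn (0.68, adjusted p = 0.016) and Nr4a3 (2.05, adjusted p = 0.049) rose and Nr4a1 (-0.75, adjusted p = 0.010) fell. Without A2 and A4, Fyn was not called (0.34, adjusted p = 0.052), while Nr4a3 was 1.06 and Entpd1 0.62, both still called; Inpp5d (-0.36) and Bag6 (0.29) were then called besides. Tox, the exhaustion factor gene, was not called (0.02 ± 0.76, adjusted p = 0.98).

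**Figure D5:**
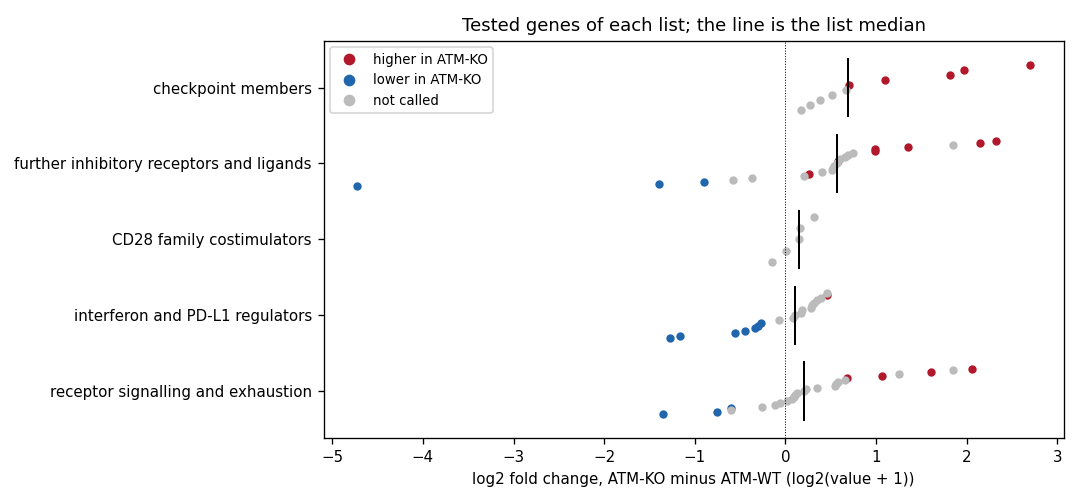
Differences, ATM-KO minus ATM-WT in log2(value + 1), of the tested genes of each list, red where called higher, blue where called lower and grey where not called (limma, adjusted p under 0.05), with a vertical line at each list's median. All 10 checkpoint genes lie above 0 here (7 of 10 without A2 and A4), and the 4 pathway lists plotted beside them hold genes on both sides of 0. Of all 16517 tested genes, 8307 lie above 0 (7996 of those still tested without A2 and A4).

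Genes with the profile most like each member were taken as those with the smallest root-mean-square difference of centred log2 values over the 10 libraries, among 12571 other named genes with a mean of at least 50 (12572 for Tigit, whose own mean was below 50). Cd276 was followed most closely, by Pacsin2 and Gna13, with differences of 0.07 and 0.08 log2 units. Vsir lay closest to Rac2 and Arhgap30 (0.17 and 0.18), Lgals9 to Fli1 and Trim30d (0.17 and 0.17), and the receptor gene Havcr2 to H2-M3 and Unc13a (0.18 and 0.20). Cd274 lay closest to Paqr8 and Atp8a1 (0.20 and 0.24), Pdcd1lg2 to Them6 and the cytokine receptor gene Il2rg (0.28 and 0.28), and Lag3 to Phf21b and the dendritic cell marker Itgax (0.33 and 0.36). Among the other receptors, Tigit lay closest to Cd3g and Serpina3g (0.34 and 0.37), Ctla4 to Rasal3 and Cd7 (0.30 and 0.33), and Pdcd1 to the cytotoxic gene Prf1 and to Gvin1 (0.79 and 0.84). The profiles share library depth and genotype, so likeness here is a description of these 10 libraries.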

How the data were processed

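RNA of 10 tumours was extracted and sequenced by a service company, per the labels' protocols. The file deposited by the authors holds normalized counts (a signal at or above 0) of 23086 gene symbols, in 10 columns. STAR, Salmon and DESeq2 are named in the submitters' processing notes, but what each did, with which version, genome build and annotation, is not given in the sources used here. A column name shows genotype and library number, and since the titles lack that number, columns were mapped to genotypes and not to single samples.

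Low values were not whole multiples of 1 read (52.8% to 67.7% within 0.05 of one, up to 20 reads), so no count model was run. Genes with a mean of at least 10 were tested with limma 3.58.1 (R 4.3.3) on log2(value + 1), using lmFit and a trended eBayes, Benjamini-Hochberg adjustment over all tested genes and a threshold of 0.05. Levels relative to CD3 and to Ptprc were fitted the same way after subtraction per library. Exact permutation tests were two-sided over all 252 splits of 5 against 5. The procedure was tested on simulated data. It called 50% of 100 genes changed 2-fold, 76% of 100 genes changed 4-fold and 13 of 16098 unchanged genes. A gene that was not called may therefore still differ. Fewer genes were changed in the simulation than were called in the tumours. Tables and figures were made in Python 3.11.15 with numpy 2.4.6, pandas 2.3.3 and matplotlib 3.10.9.

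The members, the 14 other gene lists and the repeat without A2 and A4 were chosen with earlier results of these data known. Named genes are the 10 members, Atm, and up to 4 genes per pathway list or 2 per marker list with the smallest p, except where stated. Some genes are not reported here. Start regions are from RefSeq. Alternatives covered the pseudocount (0.1 and 10), the filter (none and 50), scaling, eBayes settings, array weights, a permutation test and leaving out libraries.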

Additional observations from a re-analysis of the deposited data

Results flagged for a closer look

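Of 20 sets of 5 libraries examined (10 checkpoint genes in each genotype), 1 held a library far from the others: Havcr2 in ATM-KO, where library A11 had 409.7 normalized counts and the other 4 had 230.3 to 272. Chance alone marks about 1 set in 20.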

How the results depend on the processing

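Under the alternatives run, 4 to 6 of the 10 members were called higher and 0 lower (4 to 6 higher over the 10 fits that left out one library). Genes called higher over all tested genes ran from 3219 of 16536 (without A14) to 4514 of 16517 (quantile normalization). Those called lower ran from 3319 of 16517 (quantile normalization) to 4227 of 16517 (upper-quartile scaling). Cd274 (0.73 to 1.30), Pdcd1lg2 (1.69 to 2.49), Cd276 (0.55 to 0.81) and Lag3 (1.57 to 2.15) were called higher in all of them, with adjusted p of at most 0.023. Pdcd1 (0.94 to 3.42, adjusted p 0.013 to 0.13) lost its call with a pseudocount of 0.1 (adjusted p = 0.081), array weights (0.11) and the exact permutation test (0.067), besides the fits without libraries given above. Over fits that left out one library, its estimate ran from 1.74 to 3.37. The sign of uncalled members changed in some fits, and the cause was not tested. With array weights Ctla4 was -0.13 and Tigit -0.0087. Without A2 and A4, Ctla4 was -0.43, Tigit -0.046, Lgals9 -0.19, Havcr2 0.10 relative to CD3 and 0.10 relative to Ptprc, and Vsir -0.10 relative to Ptprc. Over fits that left out one library, Ctla4 ran from -0.16 to 0.37. Relative to CD3, Havcr2 ran from -0.36 to 0.048. Relative to Ptprc, Havcr2 ran from -0.12 to 0.080, Tigit from -0.44 to 0.028 and Vsir from -0.0070 to 0.28. Members called relative to CD3 numbered 0 to 2 when one library was left out (2 without A2 and 1 without A5), and those relative to Ptprc 2 to 3. Relative to CD3, 395 of 16463 tested genes were called higher without A2 and 161 of 16473 without A5. Relative to Ptprc, the genes called higher ran from 433 of 16535 (without A14) to 1011 of 16462 (without A2). Quantile normalization called 9 signalling genes higher in place of 4, 1 CD28 family gene in place of 0 and 0 PD-L1 regulators in place of 1; array weights called 3 of these regulators higher. The permutation test called 1 further inhibitory gene lower in place of 3. Tigit has no value with a minimum mean of 50. No paired analysis was possible because the columns carry library numbers that do not match the replicate numbers in the titles. Library A2 had the lowest estimated depth (8.82 M), so low values there carry more counting error.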
